A study of Rattus norvegicus with 6 samples.

Results

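The aquaporins are the membrane channels through which water crosses cells. Of the family, 10 rat genes were followed here (Aqp1 to Aqp9 and Aqp11) in cultured airway cells. They were found as the probe sets whose platform gene symbol was one of these names, which gave 1 probe set per gene, and they made up 10 of the 15037 named genes on the arrays. The members were chosen by symbol, but the family was selected on the log2 differences between media of these same arrays, in which Aqp5 and Aqp3 were among the largest. Their values are therefore given as a description, and the adjusted p-values printed beside the members are those of a fit to all genes and support nothing further.

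The cells were epithelial scrapings of the trachea of male wild-type Sprague Dawley rats, 12 weeks old and 370 ± 39 g, and the labels call them basal cells. Lines were each pooled from 3 rats, so that a line is no single animal, and each was split on isolation between EpiX medium (3 arrays) and BEGM, a bronchial epithelial growth medium (3 arrays). RNA was taken after 8 days. The labels give no treatment other than the medium, and fresh tissue was not analysed here. With 3 cultures per medium, p-values measure the spread between these cultures, and the number of arrays limits the precision.

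Aquaporins form tetramers in which every subunit holds its own pore, and water follows whatever osmotic gradient ion transport sets up. Some members pass almost only water, while the aquaglyceroporins (Aqp3, Aqp7 and Aqp9) also pass glycerol. In airways, Aqp3 is known from the basal cells, Aqp4 from the basolateral membrane of ciliated cells, and Aqp5 from the apical membrane of surface and gland cells, while Aqp1 is known from capillary endothelium.

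Because Aqp5 and Aqp3 carry the differences between media, the bases just before their gene starts are shown for comparison. RefSeq promoters (build GRCr8) were found for 9 of the 10 members by symbol. The Aqp5 stretch lies at chr7:132601278-132601527 on the plus strand and that of Aqp3 at chr5:61040684-61040933 on the minus strand, each 250 bases ending at the base before the start. Capitals mark the core letters of the GC box, GGGCGG, bound by Sp1-like factors, in either direction. They also mark the TATAAA element, where the general transcription machinery can bind.
Aqp5: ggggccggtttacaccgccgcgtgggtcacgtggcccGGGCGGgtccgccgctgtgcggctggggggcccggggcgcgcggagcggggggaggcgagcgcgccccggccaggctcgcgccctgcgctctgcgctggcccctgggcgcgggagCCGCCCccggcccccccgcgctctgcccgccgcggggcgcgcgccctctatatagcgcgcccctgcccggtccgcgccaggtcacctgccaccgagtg
Aqp3: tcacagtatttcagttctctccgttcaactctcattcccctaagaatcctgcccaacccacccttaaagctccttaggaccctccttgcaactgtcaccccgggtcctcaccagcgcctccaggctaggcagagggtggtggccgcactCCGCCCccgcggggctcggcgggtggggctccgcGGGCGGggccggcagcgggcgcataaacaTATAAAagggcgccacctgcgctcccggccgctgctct
Both stretches held GGGCGG at 2 places, a motif found in 30.5% of the 33469 RefSeq promoters of this length. TATAAA was found in that of Aqp3, 38 bases before the start, but not in that of Aqp5, and 12.9% of all promoters held it. Neither held TGGAAA, the core of the tonicity element bound by the osmotic response factor NFAT5, which 19.7% of promoters held. The Aqp5 stretch was 83.2% G and C with 41 CG steps, against a median of 51.2% and 5 over all promoters, and 99.6% of promoters had a lower share. That of Aqp3 was 65.2% G and C with 19 CG steps. Among the dim members, the Aqp1 promoter held both TATAAA and GGGCGG, and promoters of Aqp4 and Aqp11 held GGGCGG. These matches are exact letters only, so the tatata of the Aqp5 stretch was not counted, and they say nothing of binding.

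Aqp5, the water channel of the apical membrane in gland and alveolar lining cells, was much brighter in EpiX. Its log2 signal was 14.78, 14.19 and 13.74 on the EpiX arrays 1, 2 and 3, against 10.19, 8.36 and 6.59 on the BEGM arrays 1, 2 and 3. The groups did not overlap: the dimmest EpiX array lay 3.56 log2 units above the brightest BEGM array. The spread was wide in BEGM, where array 1 was highest and array 3 lowest over 3.60 log2 units, and narrower in EpiX, at 1.04. Mean levels were 14.24 ± 0.52 in EpiX and 8.38 ± 1.80 in BEGM (SD, n = 3 each). Aqp5 rose by 5.86 ± 0.83 (SE), the largest positive difference of all 15037 genes, with an adjusted p of 0.0131 by limma and a 95% interval of 3.90 to 7.82. No fold is given, because on the BEGM arrays 2 and 3 Aqp5 lay under the 95th percentile of the negative control probe sets (8.97 and 9.57). The highest of 23 antigenomic background probe sets read 6.99 on both arrays. Aqp5 lay above it on BEGM array 2 and under it on BEGM array 3. The BEGM level, and with it the size and rank of the difference, may thus be limited by background there. Its call ended without EpiX array 1 (adjusted p = 0.0623), without EpiX array 2 (0.0752) and without BEGM array 2 (0.0739), with the difference at 5.59 to 5.88. Without BEGM array 1 the difference was 6.77 and without BEGM array 3 it was 4.97.

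Aqp3, which passes water, glycerol and hydrogen peroxide and sits in the basolateral membrane of many epithelia, was also brighter in EpiX but far more even between cultures. It stood at 13.86, 13.84 and 14.50 on the EpiX arrays 1, 2 and 3, against 10.24, 9.87 and 9.85 on the BEGM arrays. EpiX array 3 was the highest of all, and the BEGM arrays lay within 0.39 log2 units of each other. Levels averaged 14.07 ± 0.37 in EpiX and 9.98 ± 0.22 in BEGM (SD, n = 3 each). The rise was 4.09 ± 0.22 (SE; limma adjusted p = 0.00138), with a 95% interval of 3.55 to 4.62, and taken as base 2 it is 17.0-fold. On the BEGM arrays 1, 2 and 3 Aqp3 lay above the 95th percentile of the negative controls (9.20, 8.97 and 9.57). It came closest on array 3, so background may still limit the fold. The intervals of Aqp5 and Aqp3 overlap, and the gap between the nearest arrays of the media was 3.61 for Aqp3, close to that of Aqp5. Leaving out any single array did not end the call of Aqp3, whose adjusted p then ran from 0.000281 to 0.0191, but leaving out both arrays of number 2 did, at 0.145.

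**Figure D1:**
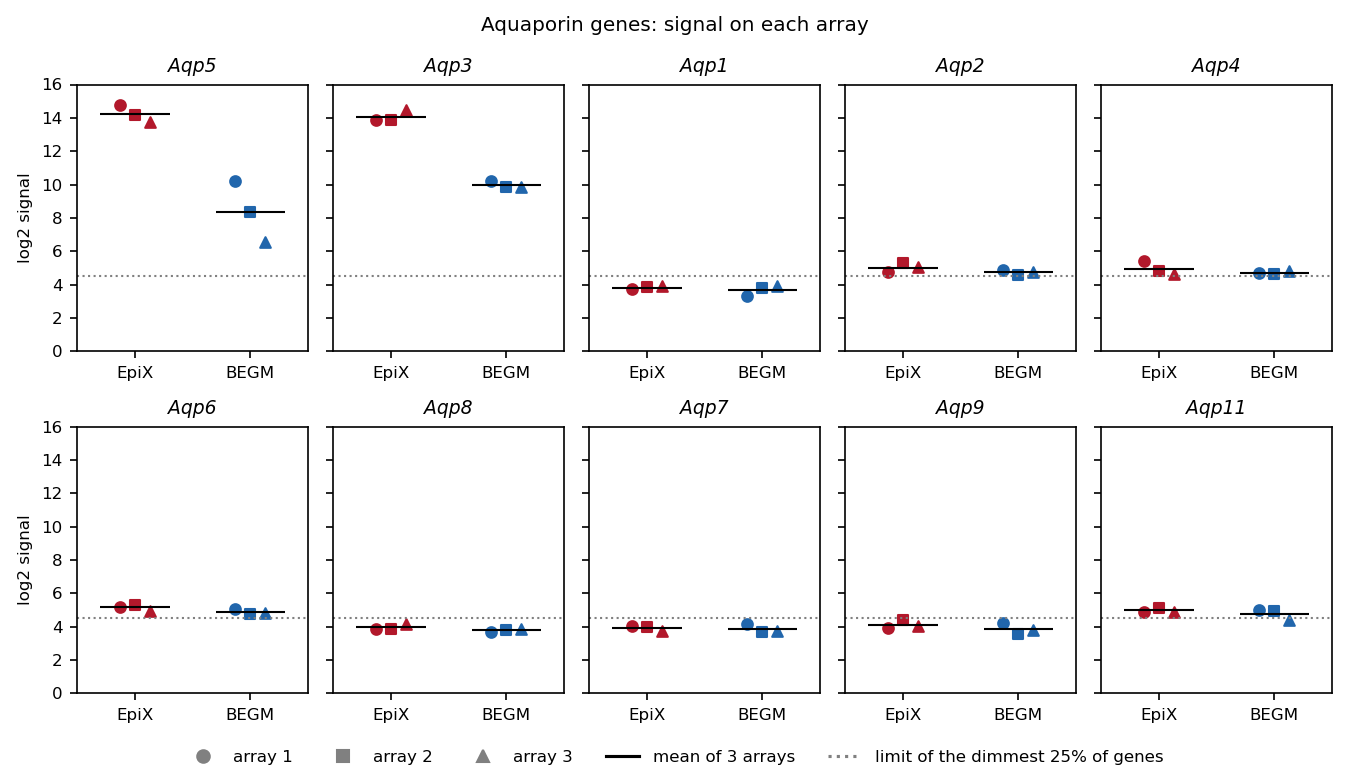
Log2 signal of the 10 aquaporin genes on each array (vertical axis), with EpiX arrays in red on the left of each panel and BEGM arrays in blue on the right. Symbols give the array number, bars the mean of 3 arrays, and the dotted line the limit of the dimmest 25% of genes (4.50). Aqp5 and Aqp3 stand above it on every array, and the other members lie near or under it in both media. On BEGM array 3, Aqp5 (6.59) lay under the highest antigenomic background probe set (6.99).

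No other member passed the test. In all, 2 of the 10 members rose, 0 fell and 8 were not called by limma, and at an unadjusted p under 0.05 the counts were the same, 2 higher and 0 lower. Over all genes 5.78% were called in either direction, 2.63% higher and 3.15% lower, and at the unadjusted p 22.5% passed, 11% higher and 11.4% lower. The groups failed to overlap for 2 members, both with EpiX above, and for 28% of all genes in either direction, 13.5% with EpiX above and 14.5% with EpiX below. Since the contrast was known when the family was chosen, nothing is read from these shares.

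The other 4 water-selective or vesicle-bound channels were dim in both media. Aqp1, the channel of capillary endothelium and red cells, read 3.75, 3.83 and 3.90 on the EpiX arrays and 3.30, 3.79 and 3.92 on the BEGM arrays. Its groups overlapped, with BEGM array 1 lowest and BEGM array 3 highest (difference 0.16 ± 0.19, SE; limma adjusted p = 0.698), and without BEGM array 1 the sign turned, to -0.030. Aqp2, the vasopressin-regulated channel of the kidney collecting duct, read 4.75, 5.29 and 5.04 in EpiX and 4.88, 4.61 and 4.77 in BEGM. Aqp4, the main water channel of astrocytes, read 5.44, 4.82 and 4.63 in EpiX and 4.68, 4.63 and 4.82 in BEGM, and EpiX array 1 stood apart from the rest. Its difference was 0.25 ± 0.23 (adjusted p = 0.572), and that of Aqp2 was 0.27 ± 0.18 (0.431). Aqp6, an anion-passing channel of vesicles in kidney intercalated cells, read 5.21, 5.32 and 4.95 in EpiX and 5.09, 4.77 and 4.84 in BEGM, with overlapping groups (0.26 ± 0.16, adjusted p = 0.421).

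The remaining members were alike in this. Aqp8, which passes water and hydrogen peroxide, read 3.85, 3.88 and 4.15 in EpiX and 3.68, 3.78 and 3.88 in BEGM, where only EpiX array 1 fell below the highest BEGM array (0.18 ± 0.15, SE; limma adjusted p = 0.540). Both other aquaglyceroporins were dim, unlike Aqp3. Aqp7, through which fat cells release glycerol, read 4.04, 3.99 and 3.72 in EpiX and 4.16, 3.68 and 3.73 in BEGM, a difference of 0.06 ± 0.18 (adjusted p = 0.896) whose sign turned when single arrays were left out. Aqp9, through which liver cells take up glycerol, read 3.89, 4.42 and 4.04 in EpiX and 4.22, 3.55 and 3.83 in BEGM (0.25 ± 0.22, adjusted p = 0.579). Aqp11, a distant family member of the endoplasmic reticulum, read 4.90, 5.15 and 4.91 in EpiX and 4.99, 4.95 and 4.42 in BEGM (0.20 ± 0.20, adjusted p = 0.613). The 95% intervals of these 8 differences ran at the widest from -0.38 for Aqp7 to 0.79 for Aqp4, so a difference of 1 log2 unit in signal lies outside each of them. These signals lay near or under the median of the negative controls, so the intervals cannot exclude a larger difference in transcripts.

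All 8 of these differences were positive, from 0.06 to 0.27 with a median of 0.22. Of the 5212 genes with a mean signal up to 5.03, that of Aqp6, 45.8% had a positive difference, and their differences lay between -0.43 and 0.31 from the 5th to the 95th percentile. Each of the 8 thus lay inside that range. This limit was chosen after the values were seen.

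**Figure D2:**
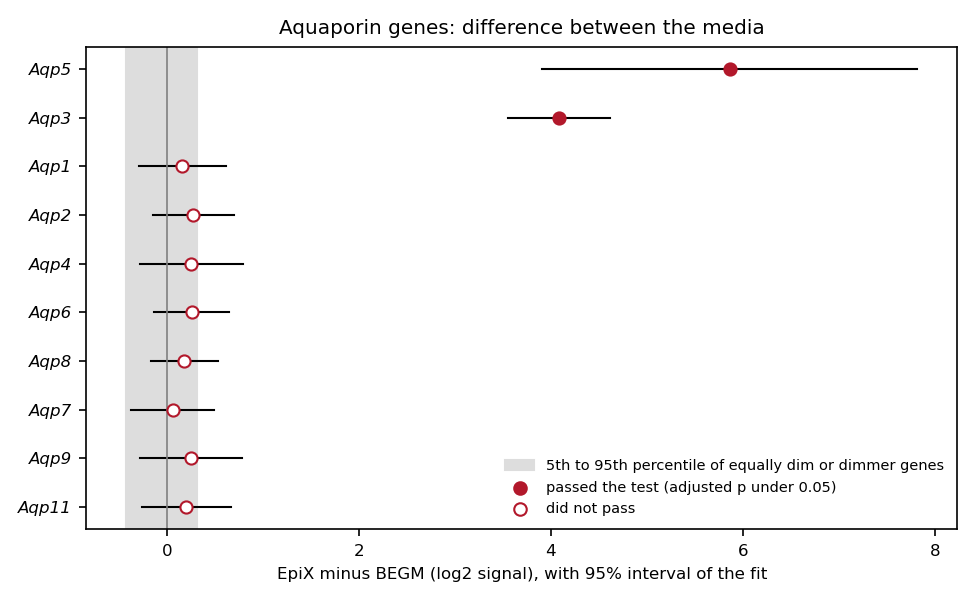
Difference of each aquaporin gene, EpiX minus BEGM in log2 signal (horizontal axis), with the 95% interval of the limma fit to 3 arrays per medium. Filled points passed the test; the grey band is the 5th to 95th percentile (-0.43 to 0.31) of the 5212 genes with a mean signal up to 5.03, and the points of all members but Aqp5 and Aqp3 lie inside it.

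Detection calls were not used here, so brightness is the one guide to whether a member was measured. By mean signal, 4 members (Aqp1, Aqp7, Aqp8 and Aqp9) lay under 4.50, the limit of the dimmest 25% of genes. Aqp1 was brighter than 0.831% to 11.9% of genes on single arrays. Against 1153 negative control probe sets, Aqp5 was brighter than 99.0% to 99.7% of them in EpiX, and than 97.6%, 92.2% and 75.3% on the BEGM arrays 1, 2 and 3. Aqp3 was brighter than 95.5% to 99.2% of them. Of these 2 genes, Aqp5 on the BEGM arrays 2 and 3 came closest to the levels of the controls. The median of these controls was itself 5.24, 5.30 and 5.56 on the EpiX arrays and 5.11, 5.16 and 5.29 on the BEGM arrays.

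The genes that rose have aquaporin neighbours in the genome. In the RefSeq gene order Aqp2, Aqp5 and Aqp6 stand next to each other on chromosome 7, and Aqp7 next to Aqp3 on chromosome 5. Aqp2 and Aqp6, on either side of Aqp5, differed by 0.27 and 0.26 and did not pass, and Aqp7 differed by 0.06. The other aquaporin genes on the arrays did not pass either. Mip, the lens aquaporin, was at 5.30 ± 0.13 in EpiX and 5.60 ± 0.34 in BEGM (SD, n = 3 each; limma adjusted p = 0.441). Aqp12a was at 3.58 ± 0.06 in EpiX and 3.60 ± 0.07 in BEGM (limma adjusted p = 0.962).

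The labelled cell type was checked against its markers, since aquaporins mark different cells. Of 9 measured airway basal cell markers 3 rose, 0 fell and 6 did not pass, beside 5.78% of all genes called. At an unadjusted limma p under 0.05 3 were higher and 1 lower, beside 11% and 11.4% of all genes. The basal keratin Krt14 was at 16.89 ± 0.21 in EpiX and 16.61 ± 0.24 in BEGM (SD), while the keratin Krt15 (4.12 ± 0.71, SE), the adhesion molecule Bcam (3.11 ± 0.19) and the basal transcription factor Tp63 (2.15 ± 0.20) rose. Cdh1 and Ngfr were named after their values were seen. Cdh1, the lower one, was at 16.24 ± 0.06 in EpiX and 16.87 ± 0.28 in BEGM (SD). Ngfr was dim in both media, at 5.14 ± 0.19 and 4.80 ± 0.10. The mean over the 9 markers was 13.93 to 14.15 on the EpiX arrays and 12.72 to 13.27 on the BEGM arrays. In such bulk samples, fewer cells of a type and less RNA per cell cannot be told apart.

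Fibroblast and stromal markers differed between the arrays as Aqp5 did, but the other way. None of 10 measured was called by limma, and 6 were lower in EpiX at an unadjusted p under 0.05, as were 11.4% of all genes. Their mean level was 5.22, 5.24 and 5.70 on the EpiX arrays 1, 2 and 3, against 6.34, 7.35 and 10.02 on the BEGM arrays 1, 2 and 3, where Aqp5 read 10.19, 8.36 and 6.59. The collagen Col1a1 was at 5.51 ± 0.35 in EpiX and 9.37 ± 2.61 in BEGM (SD; limma adjusted p = 0.109), and the microfibril gene Fbn1 at 5.69 ± 0.27 and 9.51 ± 2.41 (0.0898). The part of these cells in the Aqp5 result was not tested. Aqp3 varied by 0.39 log2 units over the same BEGM arrays.

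Lists for cells known for single aquaporins were counted in the same way, beside 5.78% of all genes called. Of 10 alveolar type I markers, which go with Aqp5 in the distal lung, the growth factor Vegfa rose (0.82 ± 0.16, SE), Pdpn fell by 2.96 ± 0.21, and 8 did not pass. At an unadjusted limma p under 0.05, 4 of these markers were higher and 1 lower, beside 11% and 11.4% of all genes. Their mean was 10.49 to 10.72 in EpiX and 10.24 to 10.58 in BEGM. Of 8 submucosal gland markers the immunoglobulin transporter Pigr rose (2.34 ± 0.28) and 7 did not pass, and the means were 6.20 to 6.54 in EpiX and 5.32 to 5.72 in BEGM. For the gland list the unadjusted counts were 1 higher and 0 lower. By limma 0 of 9 endothelial, 9 leukocyte, 6 ciliated, 7 adipocyte and 4 red cell markers were called, and at an unadjusted p under 0.05 the counts were 2, 0, 3, 3 and 0, beside 22.5% of all genes. Some markers were dim in both media and others of the same lists were not. The endothelial Pecam1 was at 4.47 ± 0.21 in EpiX and 4.87 ± 0.18 in BEGM, the leukocyte gene Ptprc at 3.89 ± 0.17 and 4.09 ± 0.07, and the ciliated cell regulator Foxj1 at 4.10 ± 0.27 and 4.18 ± 0.42 (SD). Brighter were the monocyte receptor Cd14, at 11.84 ± 0.15 in EpiX and 11.35 ± 0.49 in BEGM, the lysosomal macrophage marker Cd68, at 10.54 ± 1.19 in EpiX and 9.50 ± 0.79 in BEGM, and the endothelial adhesion molecule Esam, at 6.11 ± 0.23 in EpiX and 7.63 ± 0.79 in BEGM (SD). The part of such cells in the aquaporin values was not tested. The largest differences of these lists, given as values only, were those of Esam (-1.51) and Tek (-0.90) for endothelium, Cd68 (1.04) and Cd14 (0.49) for leukocytes, Tppp3 (1.16) and Tekt2 (-0.53) for ciliated cells, Adipoq (-1.78) and Lpl (-0.68) for fat cells, and Alas2 (0.32) and Slc4a1 (-0.23) for red cells.

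Nearness to the profile of Aqp5 was measured by the root mean square difference over the 6 arrays, each gene centred on its own mean. Predicted and unnamed loci were passed over, and the nearest 5 of the other genes were taken. They were the kallikrein peptidase Klk10 (0.61 log2 units), the kallikrein Klk13 (0.83), the keratin Krt15 (1.05), the potassium channel Kcnj15 (1.14) and the prostaglandin-degrading enzyme Hpgd (1.20). Klk10 stood at 13.01, 12.46 and 12.53 on the EpiX arrays 1, 2 and 3, against 9.96, 6.21 and 5.31 on the BEGM arrays, so that BEGM array 1 was highest and array 3 lowest within its medium, as for Aqp5. The nearest to Aqp3 were the chemokine Cxcl17 (0.30), Kcnj15 (0.45), the carbonic anhydrase Car12 (0.47), the carboxylesterase Ces2g (0.53) and the growth factor binding protein Igfbp2 (0.55). Cxcl17 stood at 10.11, 10.99 and 10.80 in EpiX, against 6.69, 6.59 and 6.49 in BEGM. The values were not scaled, so the size of the difference between media weighs heavily in these rankings. Kcnj15, listed for both members, read 7.14, 6.85 and 6.68 on the BEGM arrays 1, 2 and 3, without the wide spread of Aqp5. These likenesses rest on 6 arrays that share 2 media and are a description only.

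**Figure D3:**
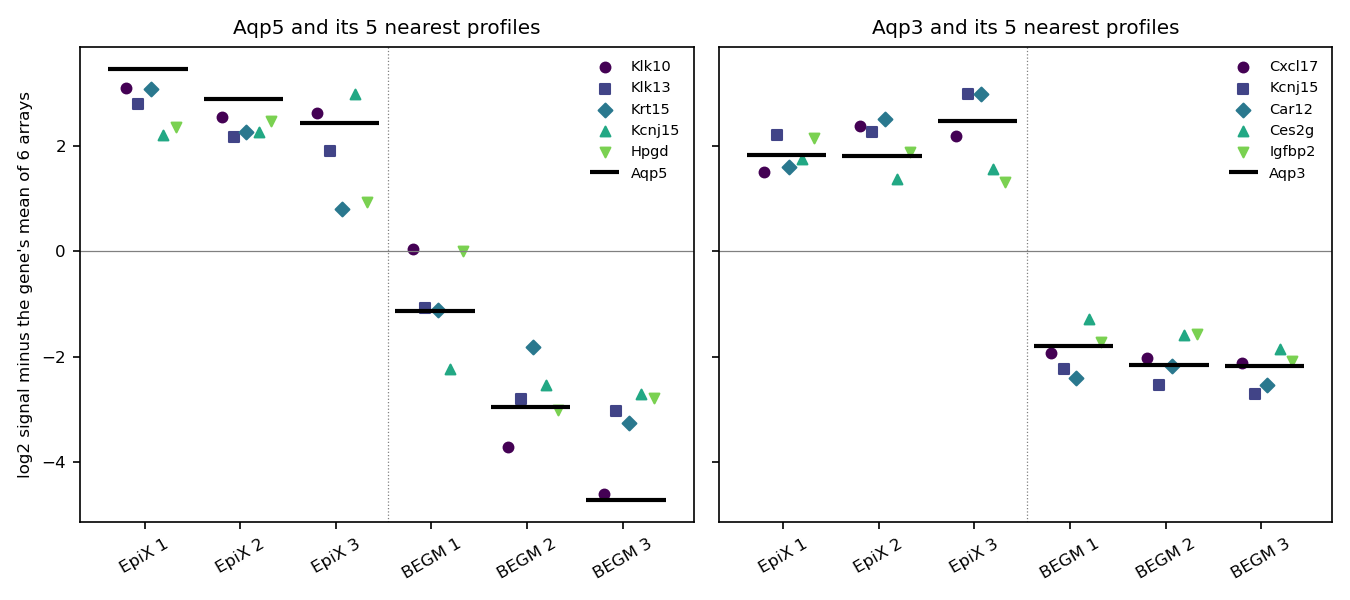
Log2 signal minus each gene's mean of 6 arrays (vertical axis) on the EpiX arrays (left of the dotted line) and the BEGM arrays (right of it), for Aqp5 and Aqp3 (black bars) and their 5 nearest profiles (coloured points). Aqp5 and Klk10 spread widely over the BEGM arrays, with array 1 highest, whereas Aqp3 and its neighbours lie within a narrow band there. Predicted and unnamed loci were passed over in the search.

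Genes that handle what aquaporins carry, or that set the gradients water follows, were taken from 6 lists. Of 94 measured genes 6 rose, 2 fell and 86 did not pass, 8.51% called against 5.78% of all genes. The median difference over these genes was 0.03, beside 0.00218 over all genes.

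Among 19 measured genes of glycerol and glycerolipid handling, 2 rose, 0 fell and 17 did not pass, and the median was 0.10. With an unadjusted limma p under 0.05, 4 were higher and 4 lower, beside 11% and 11.4% of all genes. Glycerol kinase (Gk), which phosphorylates the glycerol that aquaglyceroporins let in, stood at 14.13, 13.65 and 12.76 on the EpiX arrays 1, 2 and 3, against 12.00, 10.06 and 10.001 on the BEGM arrays. Every EpiX array was above every BEGM array, with BEGM array 1 the closest. It rose by 2.82 ± 0.60 (SE; limma adjusted p = 0.0436). Abhd5, the co-activator of fat droplet lipolysis, rose by 1.10 ± 0.24 (0.0453). Both calls were near the threshold and ended without EpiX array 1, 2 or 3 and without BEGM array 2 or 3, when the adjusted p of Gk was 0.0632 to 0.168 and that of Abhd5 0.107 to 0.164, and that of Gk also with a trended and robust variance (0.0524).

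Hydrogen peroxide passes Aqp3, Aqp8 and other members, and 21 genes of its production and removal were measured. Of these 2 rose, 1 fell and 18 did not pass, and the median was -0.000933. With an unadjusted limma p under 0.05, 2 were higher and 4 lower, beside 11% and 11.4% of all genes. The dual oxidase Duox1, which releases hydrogen peroxide at the apical airway surface, stood at 9.92, 10.01 and 10.48 on the EpiX arrays, against 7.97, 7.36 and 6.92 on the BEGM arrays, and rose by 2.72 ± 0.29 (SE; limma adjusted p = 0.00656). Its maturation factor Duoxa1 rose by 1.62 ± 0.20 (0.0096), a call that ended without EpiX array 1 (0.0531), EpiX array 2 (0.0655) or BEGM array 2 (0.052). The other dual oxidase, Duox2, named after its values were seen, was at 6.14 ± 0.50 in EpiX and 5.98 ± 1.04 in BEGM (SD), with overlapping groups. Cyba is a membrane subunit of NADPH oxidases such as Cybb and Nox4. It was at 8.50, 8.58 and 7.24 in EpiX, against 11.38, 11.82 and 11.73 in BEGM, and fell by 3.54 ± 0.36 (SE; limma adjusted p = 0.00571). The calls of Duox1 and Cyba held without each single array, and ended without both arrays of number 2. Duox1 lay under the 95th percentile of the negative controls on every BEGM array (9.20, 8.97 and 9.57 on arrays 1, 2 and 3). So did Cyba on every EpiX array (9.25, 9.22 and 10.08). The sizes of both differences may thus be limited by background.

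Of 17 measured genes of airway salt and fluid transport 2 rose, 0 fell and 15 did not pass, with a median of 0.16. With an unadjusted limma p under 0.05, 3 were higher and 2 lower, beside 11% and 11.4% of all genes. Car12, a carbonic anhydrase of the cell surface, rose by 4.74 ± 0.34 (SE; limma adjusted p = 0.00195), a call that ended only without both arrays of number 2. Car12 read 11.63, 12.54 and 13.01 on the EpiX arrays 1, 2 and 3, against 7.63, 7.84 and 7.48 on the BEGM arrays. The BEGM values lay under the 95th percentile of the negative controls there (9.20, 8.97 and 9.57), so the size of the difference may be limited by background. Slc9a3, a sodium and proton exchanger, stood at 5.38, 6.41 and 4.89 on the EpiX arrays, against 3.57, 3.91 and 3.88 on the BEGM arrays. It was dim in both media, as the median of the negative controls was 5.24, 5.30 and 5.56 on the EpiX arrays 1, 2 and 3. Slc9a3 rose by 1.78 ± 0.37 (0.0421). Its call ended without EpiX array 1 or 2 or BEGM array 2 or 3, with the adjusted p at 0.0724 to 0.136. Of 2 further channels, named after their values were seen, neither passed. The chloride channel Cftr was at 6.89 ± 0.54 in EpiX and 8.17 ± 0.67 in BEGM, and the epithelial sodium channel subunit Scnn1a at 13.22 ± 0.97 in EpiX and 12.13 ± 1.54 in BEGM (SD, n = 3 each).

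Osmotic and volume response genes gave 0 rises, 1 fall and 19 genes that did not pass of 20 measured, with a median of 0.10. The fall was that of Sgk1, a kinase induced by hypertonicity and steroids, which was at 13.23, 13.38 and 14.06 on the EpiX arrays, against 14.98, 15.14 and 15.89 on the BEGM arrays. It fell by 1.78 ± 0.31 (SE; limma adjusted p = 0.024), and its call ended without EpiX array 1 (0.0928), EpiX array 2 (0.119) or BEGM array 2 (0.0875). The tonicity factor Nfat5, named after its values were seen, was at 10.67 ± 0.58 in EpiX and 10.07 ± 0.26 in BEGM (SD) and did not pass. At an unadjusted limma p under 0.05, 5 genes of this list were higher and 3 lower, beside 11% and 11.4% of all genes.

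None of 15 measured genes of aquaporin regulation and anchoring was called by limma, while at an unadjusted p under 0.05 2 were higher and 4 lower, beside 11% and 11.4% of all genes. The largest differences were those of the vasopressin receptor Avpr1a, at 5.68 ± 0.35 in EpiX and 7.23 ± 1.19 in BEGM (SD; limma adjusted p = 0.159), and of Prkar2b, a regulatory subunit of protein kinase A, at 9.77 ± 0.12 and 8.82 ± 0.53 (0.0892).

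**Figure D4:**
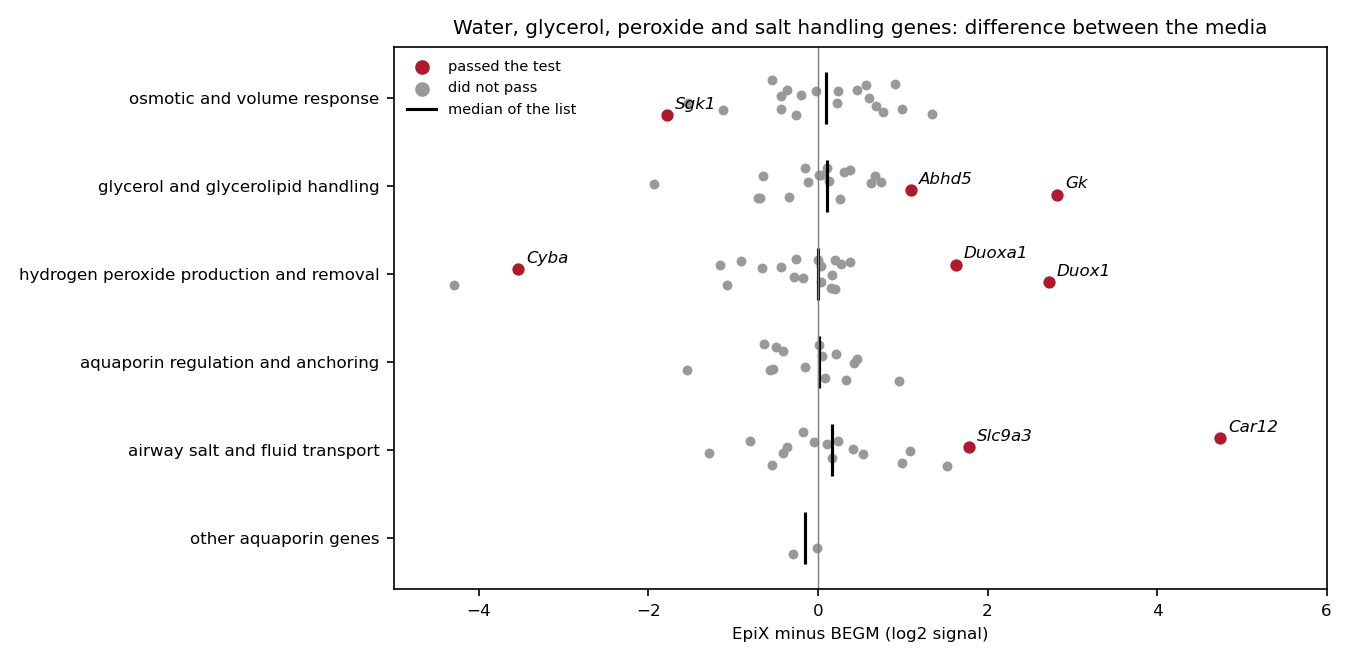
Difference of each measured gene of the 6 lists, EpiX minus BEGM in log2 signal (horizontal axis), with 1 row of points per list, spread vertically for sight only. Red points with names passed the test, grey points did not, and black bars are list medians, which lie between -0.16 and 0.16.

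Across the settings tried, the differences of both members that rose stayed positive. That of Aqp5 ran from 4.97 to 6.77 and that of Aqp3 from 3.80 to 4.32.

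**Figure D5:**
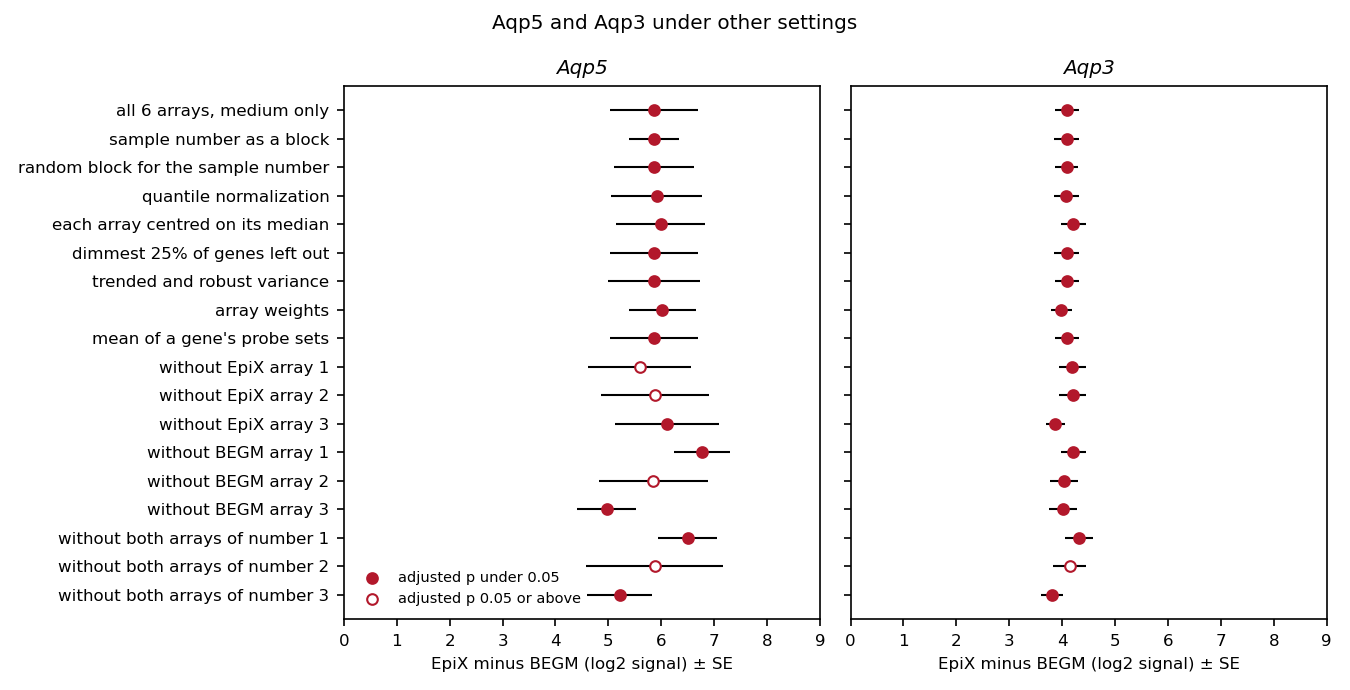
Difference of Aqp5 and Aqp3, EpiX minus BEGM in log2 signal with SE (horizontal axis), with all 6 arrays and under 17 other settings (rows). Filled points had a limma adjusted p under 0.05; Aqp5 was open in 4 settings and Aqp3 in 1, that without both arrays of number 2.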

How the data were processed

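The authors deposited a table of log2 signals, with a row per probe set and a column per array. Per the labels' protocols, RNA was biotin-labelled and run as the array maker, Affymetrix, prescribes. Transcriptome Analysis Console appears in the submitters' processing notes without a role, and normalization and centring are not stated there. The unit and the base of the logarithm were taken from the values, so the fold of Aqp3 assumes base 2. Of 24834 probe sets, 15049 had 1 gene symbol in the platform annotation, 0 had several, and the rest were left out. All 15049 were found in the RefSeq table by Entrez ID, and 0 symbols were changed. For 10 genes the brightest probe set was kept. The median over genes was 6.90 to 6.93 on the EpiX arrays and 6.98 to 7.13 on the BEGM arrays.

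Medium was the sole term of a linear model for 15037 genes, fitted with limma 3.58.1 (statmod 1.5.0, R 4.3.3) to the 6 arrays. The fitting code was tested on simulated data, from which no value is printed. Differences are EpiX minus BEGM, tests are 2-sided, and a gene passed at a Benjamini-Hochberg adjusted p under 0.05 over all genes. "Rose" and "fell" are written of such genes only. Plots used matplotlib 3.10.9.

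Members, lists and settings were chosen with earlier results of these data known. Named were all members, up to 4 called genes per list by size of difference (or the 2 largest where none was called), the 5 profiles nearest to Aqp3 and to Aqp5, and Krt14, Tp63, Foxj1, Ptprc, Pecam1 and Col1a1. Predicted and unnamed loci were passed over in the search for nearest profiles. The array number here is the sample number of the source names. The titles match the arrays of the media in the same way but number them otherwise. Those called 2 here carry a 3 in their titles, and those called 3 carry no replicate number. A fit with the array number as a block, other normalizations, variance models and filters were run as alternatives. So were fits without single arrays or same-numbered pairs.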

Additional observations from a re-analysis of the deposited data

How the results depend on the processing

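Normalization, variance model, array weights and the filter on dim genes ended neither the call of Aqp5 nor that of Aqp3. Averaging probe sets could not move a member, since each has 1. Without single arrays the difference of Aqp5 ran from 4.97 to 6.77 and that of Aqp3 from 3.87 to 4.21, and the number of members called higher was 1 to 2. Without both arrays of number 2 the differences were 5.87 for Aqp5 (limma adjusted p = 0.316) and 4.14 for Aqp3 (limma adjusted p = 0.145). In that fit 0 members and 0 of all genes were called by limma, while 1582 genes had an unadjusted p under 0.05. The unadjusted p of that limma fit was 0.00873 for Aqp5 and 0.00011 for Aqp3. That fit rests on fewer arrays, as do those without number 1 and without number 3, in which 1351 and 264 genes were called. The cause was not tested. Among members that did not pass, the sign turned for Aqp1 without BEGM array 1 (-0.030, and 0.28 without BEGM array 3), for Aqp7 without single arrays (-0.031 to 0.21) and without both arrays of number 2 (-0.067), and for Aqp9 without that pair (-0.058).

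The count of all genes called, 869, became 1252 with the replicate block, 1987 with array weights, 101 to 2089 without single arrays, 1351 without number 1 and 264 without number 3. Centring moved the median of all differences to 0.13. Genes called over the 6 lists, 8, became 15 with the replicate block, 25 with array weights, 3 to 32 without single arrays (32 without BEGM array 1), 19 without number 1, 0 without number 2 (16 at an unadjusted p under 0.05) and 5 without number 3. The causes were not tested.

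The labels do not state that same-numbered arrays come from the same line, though the titles match them in the same way. The main fit left out the split of lines between media. Deviations of same-numbered arrays from the group means correlated over genes at 0.32, -0.01 and 0.32 for the numbers 1, 2 and 3. Those of other numbers correlated at -0.37 to 0.16, with EpiX array 2 closest to BEGM array 1. In the blocked fit Aqp5 had an adjusted p of 0.00461 and Aqp3 of 0.00216, and the block changed no call of a member.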
